A study of Caenorhabditis elegans with 2 samples.

Results

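Chromosome X carried 2431 of the 16733 entries in the pooled list of peaks and background regions for the homeobox protein CEH-62, and these 2431 entries are the subject here. They were chosen by chromosome alone, as every entry of the ce11 pooled list that lay on X. The other nuclear chromosomes, I to V, held 14279 entries, so X had 2431 of 16710 nuclear entries. The study was a single experiment of chromatin immunoprecipitation with sequencing (ChIP-seq) on whole Caenorhabditis elegans at the L4 larval stage, with males and hermaphrodites together (the labels give the pool as male and female). The animals were of strain OP416, which carries the unc-119(tm4063) allele on chromosome III and the transgene wgIs416. That transgene encodes CEH-62, also called R06F6.6, with a GFP-FLAG tag at the C terminus, so occupancy is that of the tagged protein in 1 transgenic line. There were 2 biological replicates of this 1 condition, which leaves no comparison between groups of samples. X is set against the autosomes within each list, and the replicate lists are read beside the pooled list.

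Caenorhabditis elegans hermaphrodites have a pair of X chromosomes and males have a single X. The dosage compensation complex, which contains condensin subunits and SDC proteins, binds both hermaphrodite X chromosomes and lowers their transcription, and it is recruited at X-linked sites called rex sites, whose motif is rich in G and C. Homeobox proteins are DNA-binding regulators of transcription whose homeodomain commonly contacts sites with a TAAT core. The deposited lists record neither the dosage compensation complex nor transcription, so nothing about either was measured.

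Sequences of strong X entries are shown here because a short run of letters recurred in them. The run is GCGCAGGG, which is the core of the rex motif. It lay within 100 bp of the summit, the position of highest enrichment that the authors give for an entry, at 9 of the 114 X entries among the 1000 strongest nuclear entries of the pooled list. At that depth it was at 1 of 886 autosomal entries, and over all nuclear pooled entries at 0.156%. Among the 1000 strongest of replicate 1 it was at 3 of 115 on X and 0 of 885 on the autosomes. In replicate 2 it was at 8 of 136 and 2 of 864. Each line below gives the gene with the nearest protein-coding start, then 36 bases read 5′ to 3′ from the RefSeq genome of build WBcel235, which is the same assembly as ce11, with GCGCAGGG in capitals.
W02H3.3, chrX:11094111-11094146, minus strand: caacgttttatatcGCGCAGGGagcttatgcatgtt
xol-1, chrX:8036421-8036456, plus strand: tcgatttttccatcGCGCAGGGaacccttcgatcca
gtr-1, chrX:806660-806695, plus strand: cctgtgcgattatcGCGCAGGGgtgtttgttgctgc
F20B6.9, chrX:4209252-4209287, minus strand: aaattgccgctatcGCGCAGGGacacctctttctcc
T24D8.6, chrX:2364885-2364920, minus strand: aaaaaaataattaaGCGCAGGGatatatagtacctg
nspc-17, chrX:14525886-14525921, minus strand: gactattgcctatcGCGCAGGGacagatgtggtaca
ins-39, chrX:1345042-1345077, plus strand: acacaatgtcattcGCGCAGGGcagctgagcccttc
Y41G9A.17, chrX:2997109-2997144, minus strand: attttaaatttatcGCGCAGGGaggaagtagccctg
col-185, chrX:13514544-13514579, plus strand: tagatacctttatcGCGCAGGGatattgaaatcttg

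The letters just before the run were alike in most of these 9 sequences, with T at the second base before it in 8 of 9 and C directly before it in 8 of 9. An A followed the run in 7 of 9. Of these 9 entries, 8 were intergenic and 1 was in an intron. The distance from the centre of the run to the summit had a median of 39.5 bp over the 9, with a range of 2.5 to 84.5 bp.

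For the strongest X entries that lack the exact run, the 121 bases around the summit are shown for 3. F19H6.5 and T27A8.7 had the highest pooled signals on X, and C30E1.4 ranked high in both replicates. The F09E10.1 entry, with a higher pooled signal than C30E1.4 but no match in replicate 2, held neither the run nor TAATTA and is not shown. The 3 therefore do not represent all strong X entries without the run. In the T27A8.7 entry the capitals mark a run within 1 mismatch of TCGCGCAGGG, the form with the common leading bases, read here on the opposite strand, in the C30E1.4 entry they mark the homeodomain core TAATTA, and in the F19H6.5 entry the summit base. All are plus-strand sequence of WBcel235 centred on the summit.
F19H6.5, chrX:12363075-12363410: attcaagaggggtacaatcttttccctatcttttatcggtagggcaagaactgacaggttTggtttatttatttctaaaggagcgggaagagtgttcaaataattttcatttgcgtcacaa
T27A8.7, chrX:16056492-16056827: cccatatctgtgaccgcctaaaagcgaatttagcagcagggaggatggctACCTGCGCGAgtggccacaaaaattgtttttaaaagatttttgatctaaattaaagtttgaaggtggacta
C30E1.4, chrX:16930624-16930959: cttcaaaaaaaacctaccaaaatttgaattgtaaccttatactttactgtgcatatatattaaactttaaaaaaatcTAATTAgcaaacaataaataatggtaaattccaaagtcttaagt
The coordinates on these 3 lines are those of the deposited intervals, each 336 bp long as every pooled X interval was, and the printed bases are their middle part.

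X was sparsely populated for its length. The pooled list held 137.2 entries per Mb on X and 173.0 per Mb on the autosomes, a ratio of 0.793. X had the lowest density of the 6 nuclear chromosomes in that list, the next being chromosome V with 144.2 per Mb and the highest chromosome III with 206.7 per Mb. The difference in density was smaller in the replicate lists, which are longer, with 30000 entries each. Replicate 1 held 4749 X entries, or 268.0 per Mb on X against 305.6 per Mb on the autosomes (ratio 0.877), and replicate 2 held 4710, or 265.8 per Mb on X against 306.0 per Mb on the autosomes (ratio 0.869). With each replicate list taken only to its 16710 strongest nuclear entries, as many as in the pooled list, the ratios were 0.826 in replicate 1 and 0.832 in replicate 2, nearer the pooled 0.793. X also has fewer protein-coding genes for its length, with 154.1 per Mb on X and 208.9 per Mb on the autosomes, and the part of gene density in the difference was not tested.

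Along X the pooled density varied from bin to bin without an empty bin. In 20 bins of 5% of the chromosome, each 0.886 Mb, the pooled density lay between 111.7 and 168.2 per Mb. The fullest bins were the second, with 149 entries, and the sixteenth, with 145 entries, and the emptiest were the seventh and the ninth, with 99 entries each. Autosomes of this worm have gene-dense centres and repeat-rich arms, and X and the autosomes differed when each chromosome was cut into 3 equal parts. X held 141.9, 126.0 and 143.7 pooled entries per Mb in its left, middle and right part, with the middle lowest, whereas the autosomes held 164.1, 181.4 and 173.5, with the middle highest. Replicate 1 also had its lowest X density in the middle part, at 252.8 per Mb against 272.3 on the left and 279.0 on the right. Replicate 2 had 264.0, 265.0 and 268.5 per Mb, so its 3 parts of X were nearly level.

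The bins that were full in the pooled list were full in replicate 1 more than in replicate 2. Across the 20 bins, Spearman's rho was 0.866 between the pooled list and replicate 1, 0.514 between the pooled list and replicate 2, and 0.518 between the replicates. These values describe bins of the same libraries and carry no test, and the pooled list was called from the same reads as both replicates. Between pooled entries and protein-coding gene starts the rho was -0.067, so bins with more genes did not hold more entries.

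**Figure D1:**
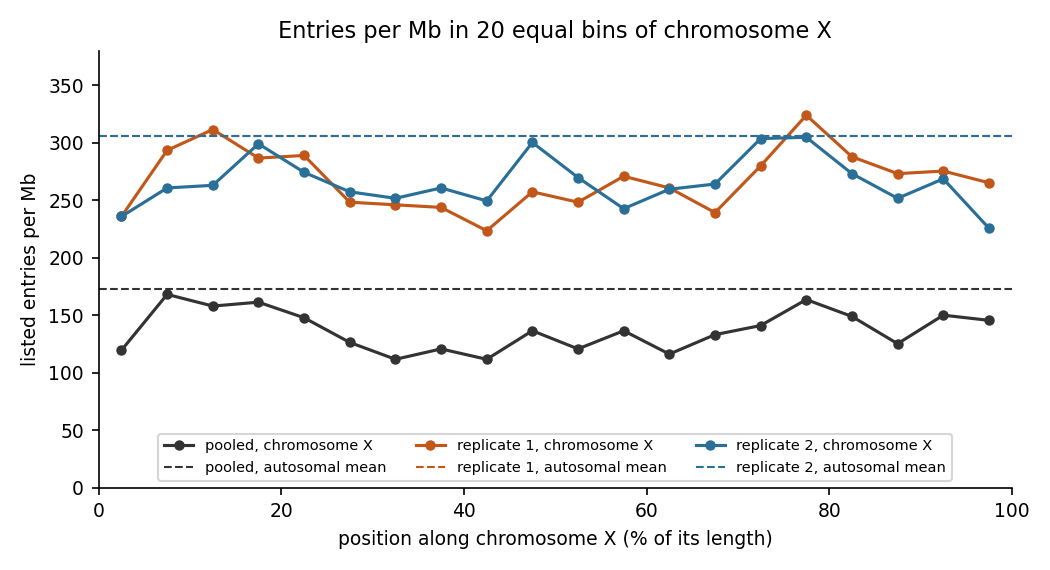
Listed entries per Mb (vertical axis) in 20 equal bins along chromosome X (horizontal axis, percent of its length) for the pooled list and the replicate lists, with the autosomal mean of each list as a dashed line. All 20 pooled bins, between 111.7 and 168.2 per Mb, lie under the autosomal mean of 173.0 per Mb.

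The left end of X held an empty stretch. No pooled entry lay between 21382 and 297151 on X, a gap of 275.8 kb, where the pooled mean of X would place 37.8 entries. The median gap between neighbouring pooled summits on X was 4356.5 bp, and 67 of 2430 gaps were under 500 bp. The stretch was thinned rather than empty in the replicate lists, with 16 entries in replicate 1, against 73.9 at that list's X mean, and 5 in replicate 2, against 73.3. It contains 24 protein-coding genes, and its GC content of 35.8% was close to the 35.2% of X as a whole. How well reads could be placed there is not given in the sources used here.

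Signal values are the authors' own peak-caller values on a scale that the sources used here do not state, and they are read only within a list. The median signal of X entries was close to that of autosomal entries in every list. In the pooled list it was 16.0 on X and 16.4 on the autosomes. The replicate 1 median was 8.50 on X and 8.68 on the autosomes, and the replicate 2 median was 7.96 on X and 8.11 on the autosomes. The tops of the lists differed more. The highest pooled signal was 58.02 on X and 101.01 on the autosomes, the highest replicate 1 signal was 25.2 on X and 58.1 on the autosomes, and the highest replicate 2 signal was 40.3 on X and 42.8 on the autosomes.

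The count of strong entries on X varied with how far down the list was read, and with the replicate. X has 17.7% of the nuclear genome length and 14.5% of the nuclear pooled entries. In the pooled list X held 2 of the 10 strongest nuclear entries, 10 of the 50 strongest, 15 of the 100 strongest and 114 of the 1000 strongest. That last share, 11.4%, was lower than the share over all entries. The counts of the replicates differed at the top. X held 0 of the 10 strongest in replicate 1 (0 to 30.8%) and 3 of the 10 in replicate 2 (6.67 to 65.2%). It held 2 of the 50 strongest in replicate 1 (0.488 to 13.7%) and 10 of the 50 in replicate 2 (10.03 to 33.7%). These counts are small, and the intervals overlapped at both depths. At 1000 entries the replicates were closer, with 115 on X in replicate 1 and 136 in replicate 2.

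The optimal list, which the authors derived from the pooled and replicate lists by the irreproducible discovery rate, held 27 nuclear peaks, or 0.162% of nuclear pooled entries. Of these, 6 lay on X, a share of 22.2% with an exact Clopper-Pearson interval of 8.62 to 42.3%. That interval, like every interval given here, is at 95%, treats entries as independent and covers counting error only. It includes both the 14.5% of all entries and the 17.7% of genome length. In the optimal list of the ce10 build, 11 of 69 nuclear peaks lay on X, a share of 15.9% (8.24 to 26.7%).

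**Figure D2:**
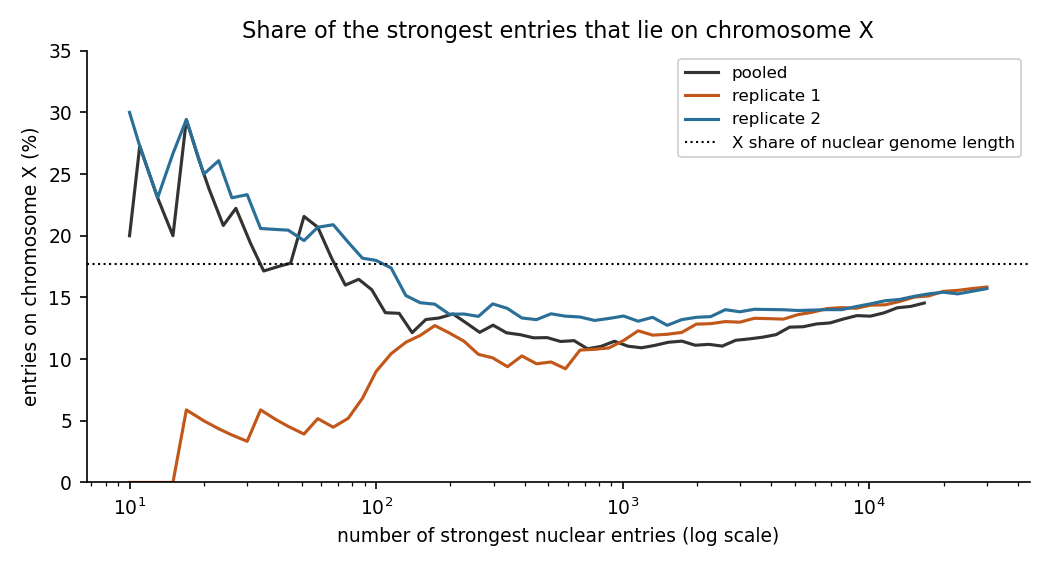
Percent of the strongest nuclear entries that lie on chromosome X (vertical axis) against the number of strongest entries taken (horizontal axis, log scale) for the pooled list and both replicate lists, with the X share of genome length (17.7%) dotted. The pooled and replicate 2 curves start at or above that line while the replicate 1 curve starts at 0 of 10, and the 3 curves lie between 11.4% and 13.6% at 1000 entries.

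X entries lay away from the starts of protein-coding genes more often than autosomal entries did. A promoter window was taken as 1000 bp upstream to 200 bp downstream of such a start. Over nuclear pooled entries, 26.7% had the summit in a promoter window. On X this was 485 of 2431, or 19.95% (18.4 to 21.6%), and on the autosomes 3977 of 14279, or 27.9% (27.1 to 28.6%). Promoter windows cover 17.6% of positions on X and 22.3% on the autosomes, so each share stood somewhat above the share of its own sequence. The replicate lists had the same order, with 18.8% on X and 25.5% on the autosomes in replicate 1 and 20.9% on X and 26.4% on the autosomes in replicate 2.

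The gap was wider among strong entries. Among the 100 strongest nuclear pooled entries, 0 of 15 on X lay in a promoter window (0 to 21.8%), against 57 of 85 on the autosomes, or 67.1%. Among the 300 strongest the counts were 7 of 38 on X, or 18.4%, and 129 of 262 on the autosomes, or 49.2%. Among the 1000 strongest they were 25 of 114 on X, or 21.9%, and 371 of 886 on the autosomes, or 41.9%. In the optimal list 0 of 6 X peaks (0 to 45.9%) and 19 of 21 autosomal peaks (90.5%, 69.6 to 98.8%) were at promoters. The median distance from summit to start was 2864.5 bp for the optimal peaks on X and 174 bp for those on the autosomes, and over all pooled entries it was 1887 bp on X and 1409 bp on the autosomes.

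Each replicate showed this order among its own 100 strongest nuclear entries. In replicate 1, 2 of 9 on X and 41 of 91 on the autosomes lay in a promoter window, and in replicate 2, 5 of 18 on X and 48 of 82 on the autosomes did. The X counts are small, and no test over samples exists with a single condition.

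**Figure D3:**
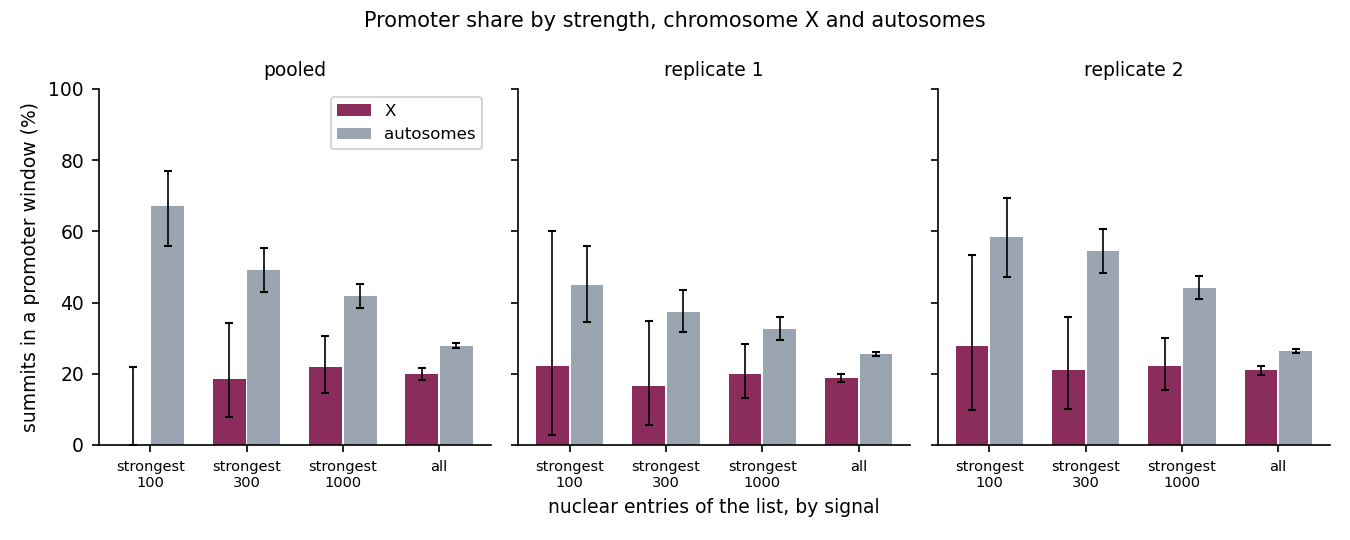
Percent of summits in a promoter window (vertical axis) for the 100, 300 and 1000 strongest nuclear entries and all entries of each list (horizontal axis), with X bars left of autosome bars and 95% Clopper-Pearson intervals over entries as lines. The X bar is the lower of each pair, from 0 of 15 against 57 of 85 among the 100 strongest pooled entries to 19.95% against 27.9% over all pooled entries.

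The gene parts under the summits followed the same difference. Intergenic summits made up 47.2% of pooled entries on X and 37.7% on the autosomes, where 41.0% of X positions and 31.6% of autosomal positions are intergenic. Introns held 33.6% of X summits and 37.5% of autosomal summits. Coding exons had fewer summits than their share of positions on both, with 10.7% of summits and 19.97% of positions on X and 14.7% of summits and 25.6% of positions on the autosomes. The 3′ UTR class held 5.02% on X and 5.74% on the autosomes, and the 5′ UTR class 0.946% on X and 1.83% on the autosomes.

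A minority of the X entries could be found in both replicates. A pooled entry was matched to a replicate list when a summit of that list lay within 150 bp. Over nuclear pooled entries, 28.5% were matched in both replicate lists. On X this was 607 of 2431, or 24.97% (23.3 to 26.7%), and on the autosomes 4148 of 14279, or 29.0%. Replicate 1 matched 58.9% on X and 62.1% on the autosomes, replicate 2 matched 56.4% on X and 58.6% on the autosomes, and 236 X entries, or 9.71%, had no match in either. Strong X entries were found in both far more often, at 92 of the 114 X entries among the 1000 strongest (80.7%), against 668 of 886 on the autosomes (75.4%). Both replicates were called with the same control, so part of any overlap may come from it, and pooled calling used both sets of reads.

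Entries listed in both replicates often differed in strength between them. Over the 607 matched X entries, Spearman's rho between the replicates' signals was 0.092, and 9 of them (1.48%) were within the 1000 strongest nuclear entries of both replicates, against 55 of the 4148 matched autosomal entries (1.33%). These shares were alike. Over the matched autosomal entries the rho was 0.005. Of the 6 optimal peaks on X, 5 were matched in both replicates and 2 were within the 1000 strongest of both. On the autosomes, all 21 optimal peaks were matched in both and 16 were within the 1000 strongest of both. These rho values are descriptions over entries of 2 libraries and carry no test.

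The 20 strongest X entries of the pooled list had signals of 33.1 to 58.02, and the twenty-first had 33.1 as well. Of the 20, 13 were intergenic, 3 lay in introns, 2 in exons of non-coding genes, 2 in 3′ UTRs and 0 in coding exons. The 20 strongest autosomal entries had signals of 42.7 to 101.01, so the 2 sets of 20 differed in strength as well as in chromosome. A promoter window held 1 of the 20 on X, against 18 of the 20 strongest autosomal entries. The median distance to a protein-coding start was 2953.5 bp on X and 188.5 bp on the autosomes. Sequence around the summits of the 20 X entries was poorer in G and C, at a mean of 31.5% against 39.7% for the 20 autosomal ones. The means were close further down the pooled list. They were 33.0% on X and 32.7% on the autosomes among the 1000 strongest, and 32.3% and 32.4% over all entries. Among the 100 strongest of each replicate the order differed, with 32.3% on X and 31.7% on the autosomes in replicate 1. In replicate 2 they were 34.5% and 37.8%. Of the 20 X entries, 18 were in both replicate lists but 8 were within the 1000 strongest nuclear entries of both, against 15 of the 20 autosomal ones. Replicate 2 ranked 12 of the 20 higher and replicate 1 ranked 8 higher, the same split as for the 20 autosomal entries.

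The strongest X entry, nearest F19H6.5, was at chrX:12363075-12363410, in intergenic sequence on the downstream side of the F19H6.5 start, 1661 bp from it. Its signal was 58.02 in the pooled list, 22.4 in replicate 1 and 37.2 in replicate 2, at rank 58 of the nuclear entries in replicate 1 and rank 8 in replicate 2. It held neither GCGCAGGG nor TAATTA, and its rank was high in both replicates. The second X entry, nearest T27A8.7, lay 714 bp from the start of the small nucleolar RNA gene T27A8.8. Its pooled signal was 53.7, but its replicate signals were 7.77 in replicate 1, at rank 19872, and 39.1 in replicate 2, at rank 5. That entry was strong in replicate 2 only.

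The third, nearest W02H3.3 and 4068 bp from its start, had a pooled signal of 48.7, with 15.6 in replicate 1 (rank 1017) and 40.3 in replicate 2 (rank 4). It was the highest-ranked X entry with GCGCAGGG, and a tRNA gene started 1555 bp away. The fourth, nearest F09E10.1, had a pooled signal of 46.1 and went the other way, with 21.6 in replicate 1 (rank 78) and no matched entry in replicate 2. The fifth lay in an exon of the non-coding gene C30E1.9 with C30E1.4 as the nearest coding gene. Its signal was 45.7 in the pooled list, 25.2 in replicate 1 (rank 16) and 22.9 in replicate 2 (rank 112), and it contained TAATTA. It had the best replicate 1 rank on X.

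The sixth optimal X peak lay 4806 bp upstream of xol-1, at chrX:8036339-8036674, and carried GCGCAGGG. xol-1 is the switch gene that sets male development and shuts off hermaphrodite dosage compensation. Its pooled signal was 43.6, while replicate 1 gave 10.02 (rank 9336) and replicate 2 gave 32.5 (rank 15). The summit was 167 bp from the start of the non-coding gene C18A11.13 and exactly 1000 bp upstream of the tRNA gene WBGene00022938. The xol-1 promoter window itself held no pooled summit, and the nearest summit to the xol-1 start was 3577 bp away.

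Among the other strong X entries, several lay near or inside genes with known roles. The entry nearest gtr-1, which encodes a G protein-coupled receptor, was 3815 bp downstream of its start, with a pooled signal of 40.2 and replicate ranks of 140 and 409. The entry 2172 bp upstream of hrg-1, a heme transporter gene, lay in an intron of mop-25.1 and ranked 126 and 495. The K02D3.1 entry, 6268 bp upstream, ranked 132 and 209. With F19H6.5 and C30E1.4, these 3 were the 5 X entries whose worse replicate rank was best, and only the gtr-1 entry among them carried GCGCAGGG.

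Nuclear receptor genes held 2 of the 20 in their introns. In nhr-1 the entry was 3319 bp from the start, with ranks of 12322 in replicate 1 and 140 in replicate 2. In daf-12, whose product is the steroid receptor of the dauer decision, it was 4517 bp from the start, with ranks of 372 and 3094. These were strong in opposite replicates. The entry nearest lgc-21, a ligand-gated channel gene, lay inside a tRNA gene and ranked 637 and 114, and the entry nearest epn-1, an endocytic adaptor gene, was intergenic and ranked 212 and 1066. The W05H7.1 entry had no match in replicate 1 and rank 58 in replicate 2, and the F35H12.6 entry had rank 102 in replicate 1 and 2278 in replicate 2.

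The 5 strongest X entries inside promoter windows began at the seventeenth place on X. They were selected after their values were seen. The gene nspc-17 encodes a nematode-specific peptide of a multigene family. Upstream of it lay a pair of entries, at 592 and 792 bp, whose intervals overlap, so the 5 are not all separate regions. This pair had pooled signals of 33.9 and 32.8. In replicate 1 their ranks were 8722 and 2203, and replicate 2 placed them at 28 and 99. The sec-3 entry, at a gene for an exocyst subunit, had its summit 84 bp from the start in a coding exon and ranked 1979 and 1527. The F25E2.3 entry ranked 32 and 3764, and the entry at mdt-1.2, a Mediator subunit gene, ranked 7784 and 173. Of these 5, the second nspc-17 entry held GCGCAGGG and is in the list of sequences above.

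GCGCAGGG lay near the summit at a larger share of X entries than of autosomal entries, most at the top of the lists. The search took both strands of the 201 bp centred on the summit, and 0.156% of nuclear pooled entries held the run. On X it was 18 of 2431, or 0.740% (0.439 to 1.17%), and on the autosomes 8 of 14279, or 0.0560% (0.0242 to 0.110%). The contrast was smaller in both replicate lists. These are longer than the pooled list, and the part of list length in this was not tested. Replicate 1 had the run at 9 of 4749 on X (0.190%) and 16 of 25231 on the autosomes (0.0634%). In replicate 2 it was at 16 of 4710 on X (0.340%) and 17 of 25262 on the autosomes (0.0673%). When the whole chromosomes were divided into windows of the same length, 0.0851% of X windows and 0.0553% of autosomal windows held it, so autosomal entries were at the level of autosomal sequence. The occurrence of the letters is a description and not evidence of a site or of what was bound there. Since the run was singled out as recurring in strong X entries, its counts and signals at them are no independent observation.

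The share fell steeply with rank on X. Ranking X entries among themselves by pooled signal, the run was at 5 of the 20 strongest, 4 of the next 80, 2 of the next 400 and 7 of the other 1931. Ranking autosomal entries in the same way gave 0 of 20, 0 of 80, 1 of 400 and 7 of 13779. Replicate 2 showed the same order, with 6 of 20, 2 of 80, 3 of 400 and 5 of 4210 on X, and 0 among the 500 strongest on the autosomes. Replicate 1 showed it weakly, with 1 of 20, 2 of 80, 2 of 400 and 4 of 4249 on X, and again 0 among the 500 strongest on the autosomes. At the top of X the run was thus counted more often in replicate 2 than in replicate 1.

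**Figure D4:**
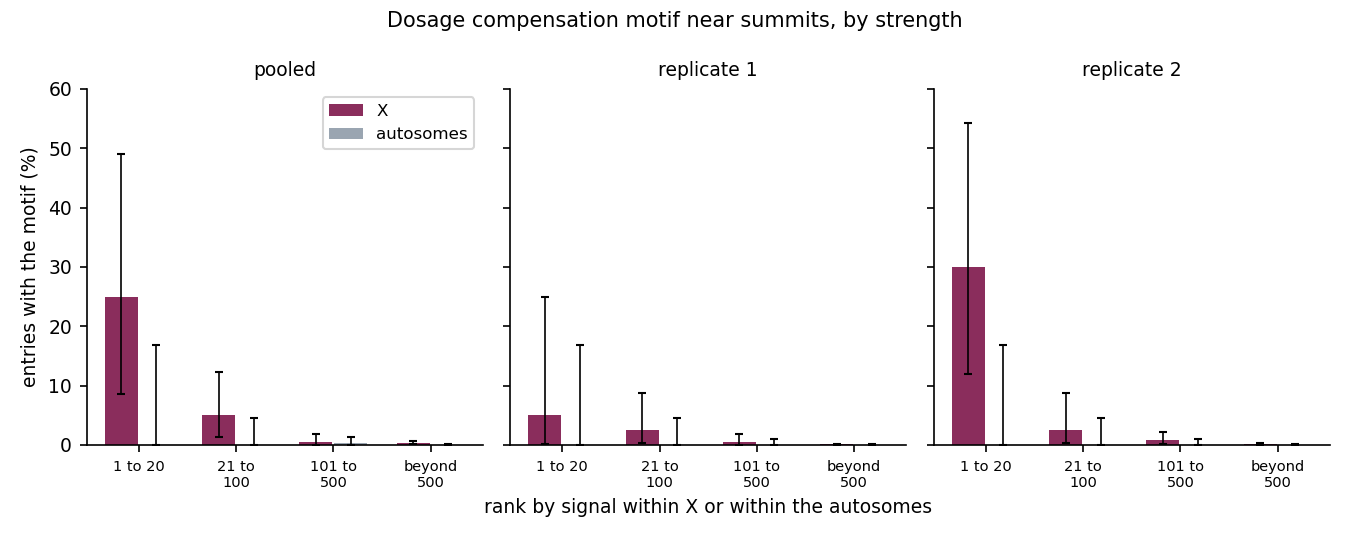
Percent of entries with GCGCAGGG within 100 bp of the summit (vertical axis) by rank of signal within X or within the autosomes (horizontal axis), for each list, with X bars left of autosome bars and 95% Clopper-Pearson intervals over entries as lines. The X bar at ranks 1 to 20 stands at 5 of 20 in the pooled list, 1 of 20 in replicate 1 and 6 of 20 in replicate 2, and the autosome bar there is at 0 of 20 in all 3.

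Counted from the genome, X contains 81 copies of the run, or 4.57 per Mb, and the autosomes contain 233, or 2.82 per Mb. A pooled summit lay within 100 bp of 19 of the 81 copies on X (23.5%, 14.8 to 34.2%) and 8 of the 233 on the autosomes (3.43%, 1.49 to 6.65%). In replicate 2 the counts were 17 of 81 on X (20.99%) and 17 of 233 on the autosomes (7.30%). In replicate 1 they were 9 of 81 on X (11.1%) and 16 of 233 on the autosomes (6.87%), and there the intervals of 5.21 to 20.05% and 3.98 to 10.9% overlapped. In each of the 3 lists, most copies on X had no summit beside them.

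X entries with the run also had higher signals than those without. The pooled median was 23.8 for the 18 with it and 16.0 for the 2413 without, the replicate 1 median 15.3 for 9 entries with it and 8.50 without, and the replicate 2 median 15.7 for 16 entries with it and 7.95 without. On the autosomes the 8 pooled entries with the run had a median of 17.3, against 16.4 for the others. The order there differed between replicates. In replicate 1 the 16 autosomal entries with the run had a median of 7.73, against 8.68 for the others. In replicate 2 the 17 with it had 8.77, against 8.11. The ranks of single X entries were uneven between replicates. The F20B6.9 entry ranked 839 and 44, the T24D8.6 entry 847 and 88, and the ins-39 entry, upstream of an insulin-like peptide gene, 22605 and 55. The col-185 entry, by a collagen gene, ranked 1165 and 2299, and the Y41G9A.17 entry had no match in replicate 1 and rank 547 in replicate 2. The last 3 of these, and the second nspc-17 entry, were singled out for the run after values were seen.

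The longer form TCGCGCAGGG was taken from the flanks of the 9 sequences above, so its presence at them is no independent observation. X contains 19 exact copies and the autosomes contain 6. Summits lay within 100 bp of 9 of the 19 X copies in the pooled list, 4 in replicate 1 and 10 in replicate 2, and of 0 of the 6 autosomal copies in each list. Allowing at most 1 mismatch, the longer form was at 5 of the 20 strongest X entries, namely those nearest T27A8.7, W02H3.3, xol-1, gtr-1 and F20B6.9, with a second inexact copy at gtr-1 and at F20B6.9. Over all pooled entries it was at 17 of 2431 on X (0.699%) and 18 of 14279 on the autosomes (0.126%). Of windows of that length, 0.170% on X and 0.132% on the autosomes hold it. In replicate 1 it was at 10 of 4749 on X (0.211%, 0.101 to 0.387%) and 39 of 25231 on the autosomes (0.155%). That X interval includes the share of X windows. In replicate 2 it was at 21 of 4710 on X (0.446%, 0.276 to 0.681%) and 42 of 25262 on the autosomes (0.166%).

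**Figure D5:**
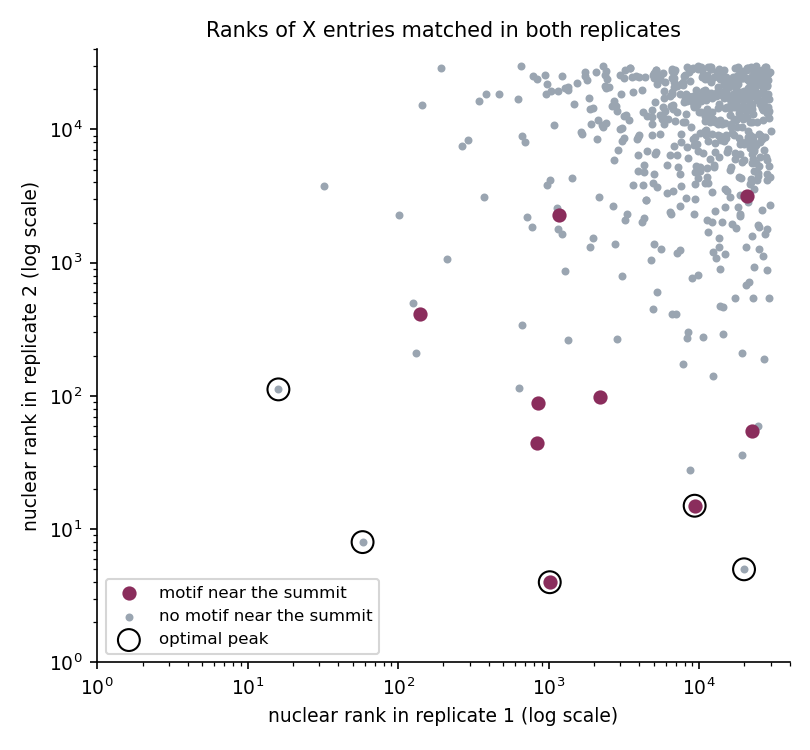
Nuclear rank in replicate 1 (horizontal axis, log scale) and in replicate 2 (vertical axis, log scale) of the 607 X entries matched in both lists, with entries holding GCGCAGGG as large filled points and optimal peaks circled. Several large points lie at low rank numbers of replicate 2 and spread along the replicate 1 axis, as at W02H3.3 (1017 and 4) and xol-1 (9336 and 15). The gtr-1 point (140 and 409) ranks better in replicate 1. The col-185 (1165 and 2299) and C41A3.2 (20777 and 3183) points lie at higher rank numbers of replicate 2. Most entries crowd at high rank numbers of both.

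The homeodomain core TAATTA was far commoner than GCGCAGGG, and its shares on X and on the autosomes lay closer together. Over nuclear pooled entries 11.4% held it within 100 bp of the summit. It was at 304 of 2431 on X, or 12.5%, and at 1604 of 14279 on the autosomes, or 11.2%, where 10.2% of X windows and 9.12% of autosomal windows hold it. Among the 1000 strongest nuclear pooled entries it was at 19 of 114 on X (16.7%, 10.3 to 24.8%) and 117 of 886 on the autosomes (13.2%, 11.0 to 15.6%). The replicates differed in order there. Replicate 1 had 12 of 115 on X (10.4%) and 117 of 885 on the autosomes (13.2%). Replicate 2 had 22 of 136 on X (16.2%) and 94 of 864 on the autosomes (10.9%). Of the 20 strongest X entries 5 held it, at C30E1.4, hrg-1, T24D8.6, daf-12 and bet-2, so the T24D8.6 entry had both runs.

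The genes of sex determination and dosage compensation were looked at because X is the chromosome they count and regulate. Of the 7 listed genes on X, 3 had a pooled summit in the promoter window, against 8 of the 17 on the autosomes. Over all protein-coding genes, 17.3% on X and 24.6% on the autosomes had such a summit, and with 7 genes no difference from that share can be read. At tra-4, which encodes a zinc finger repressor of male genes, the summit was 986 bp upstream with a pooled signal of 25.02, and the entry ranked 9722 and 15348 in the replicates. At sdc-1, a gene of the dosage compensation machinery, the signal was 16.1, and at ceh-39, a homeobox gene that acts as an X signal in sex determination, it was 15.2. These last 2 were near the pooled median of X and had no match in either replicate. The other 4, with no summit in the window, had the nearest summit 921 bp from the start for fox-1, 2874 bp for sex-1, 3577 bp for xol-1 and 19146 bp for sdc-2.

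Other gene groups on X had summits at a few members each. A promoter summit was present at 472 of 2731 protein-coding genes on X (17.3%) and at 4242 of 17242 on the autosomes (24.6%). Homeobox genes had one at 3 of 27 on X, namely ceh-31, ceh-37 and ceh-39, and at 10 of 69 on the autosomes. Collagen genes had one at 5 of 27 on X and 24 of 129 on the autosomes, nuclear hormone receptor genes at 6 of 23 on X and 64 of 246 on the autosomes, and ion channel genes at 7 of 39 on X and 22 of 99 on the autosomes. Neuropeptide and insulin genes had one at 4 of 34 on X, including ins-39, flp-20 and flp-11, and at 23 of 106 on the autosomes. Ribosomal protein genes, which lie mostly elsewhere, had one at 1 of 2 on X, rpl-25.1, and at 40 of 76 on the autosomes. None of these groups was tested as a set. The highest pooled signals among the X members of these groups were 29.99 at ins-39 and 26.9 at the potassium channel gene slo-2.

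Of the tRNA genes, 276 lie on X and 336 on the autosomes, and many are near-identical copies, so that the placement of reads among them is uncertain. A summit in the same window about their own start was present at 92 of the 276 on X (33.3%), from 77 distinct entries, and at 109 of the 336 on the autosomes (32.4%). The strongest X entries in these windows were those by WBGene00022938, which is the xol-1 peak, WBGene00014275 and WBGene00022962, with pooled signals of 43.6, 38.2 and 30.1. Of the 20 strongest X entries, 3 were within 2000 bp of a tRNA start (15%), against 151 of all 2431 X entries (6.21%) and 4.36% of X positions. Genes of small nuclear and nucleolar RNAs had a summit at 9 of 36 on X, the T27A8.8 entry first with 53.7, and at 132 of 439 on the autosomes. MicroRNA genes had one at 12 of 74 on X, from 6 entries since cel-mir-54, cel-mir-55 and cel-mir-56 share 1 entry with a signal of 22.7, and at 48 of 187 on the autosomes.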

How the data were processed

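The lists were deposited by the authors. Per the deposited file inventories, peaks and background were called for each replicate and for both replicates pooled, each with 1 control, and the optimal list came from these by the irreproducible discovery rate. The signal value of each entry is the authors' own, on a scale not stated. Which aligner and caller were used is not given in the sources used here, nor are read totals, and the depth is unknown. Ranks are by signal among nuclear entries of each list. Each replicate was called separately, and replicate numbers are those of the labels.

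Summits were annotated with Ensembl release 115 gene models. Where classes overlap, coding exon was taken before 5′ UTR, 3′ UTR, non-coding exon, intron and intergenic. Named entries were the 20 strongest on X, the X optimal peaks, the 5 best in both replicates and up to 3 members per gene group. Entries and gene lists were chosen with earlier results of these data known. Intervals are exact Clopper-Pearson. Python 3.11.15, numpy 2.4.6, pandas 2.3.3, scipy 1.17.1 and matplotlib 3.10.9 were used, and the annotation and matching code was tested on simulated data. The alternatives tried were other lists, windows, distances and thresholds. The ce10 lists were used for counts and signal only, and the ce10 density ratio uses ce11 chromosome lengths.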

Additional observations from a re-analysis of the deposited data

How the results depend on the processing

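The X to autosome ratio of entries per Mb, 0.793 in the pooled list, was 0.869 and 0.877 with 1 replicate left out, 0.826 and 0.832 when those lists were taken to the length of the pooled list, 0.756 against the middle part and 0.813 against the outer parts of the autosomes, cut into 3 equal parts each, and 0.599 among the 1000 strongest entries. It reversed to 1.33 in the ce11 optimal list, which rests on 27 nuclear peaks, but was 0.884 in the ce10 optimal list of 69. The ratio of median signals, 0.978, was 0.974 in the ce10 pooled list and 0.980 and 0.981 with 1 replicate left out. The promoter share of X, 19.95%, was 9.63% in the window of 500 bp upstream, 36.7% in that of 2000 bp, 25.1% with the starts of all transcripts, 24.4% for any overlap of the interval and 21.9% among the 1000 strongest, and between 18.8% and 20.9% with 1 replicate left out. The autosomal shares in the first 4 of these settings, 16.6%, 45.1%, 33.7% and 33.1%, stayed higher. The share matched in both replicates was 10.6% within 50 bp, 35.01% within 300 bp, 35.3% by 1 bp of overlap and 80.7% among the 1000 strongest.

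GCGCAGGG was at 0.288% of X entries and 0.0280% of autosomal entries within 50 bp, and at 0.905% and 0.0910% within 200 bp. Among the 1000 strongest it was at 7.89% on X and 0.113% on the autosomes. With 1 replicate left out it was at 0.190% to 0.340% on X and 0.0634% to 0.0673% on the autosomes. TAATTA was at 5.92% of X entries within 50 bp, 23.2% within 200 bp and 16.7% among the 1000 strongest. With 1 replicate left out it was at 11.6% to 12.2% on X. The ce10 optimal list had 11 X peaks of 69, against 6 of 27 in ce11. The longer motif form with 1 mismatch, the ce10 optimal ratio and the lists of equal length were chosen after the data were seen. No paired analysis was possible because there is a single condition. With 2 replicates and an unknown depth, strong entries found in only 1 replicate limit every statement about the top of the list.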
